A study of Zea mays with 24 samples.

Results

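The maize genes glk1 and lhcb6 were followed across watered, drought-stressed and re-watered seedlings through every probe set that the array annotation gives to them. A probe set is the group of short oligonucleotides on the array that reads 1 transcript. The arrays carry 17734 probe sets, of which 5 belong to these genes, 1 to glk1 and 4 to lhcb6. They are 2 of the 1108 genes to which the array annotation ties a probe set of their own. The lhcb6 probe sets are called here the brightest one, the _x_at and the _a_at probe set after the endings of their names, and the dim one. Both genes were chosen by their signals on these same arrays in an earlier analysis, so their levels and changes are given as a description with no test.

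RNA came from seedlings with 3 leaves of 2 maize inbreds, Han21 and Ye478, taken from the shoot per the labels, although the extraction protocol names mesocotyls, the stem segment between seed and coleoptile. Watered control plants, moderately and severely droughted plants and re-watered plants were compared in both, which makes 8 groups of 3 arrays, titled as biological replicates. Neither soil water content nor treatment length is labelled, no transgene or mutation is named for either line, and whether plants were pooled is not said. Since the design text mentions 2 independent experiments, the spread between replicates may be partly technical.

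GOLDEN2-LIKE transcription factors switch on genes for chloroplast development, and in Arabidopsis they activate genes of the light-harvesting antenna and of chlorophyll synthesis. In the C4 leaf of maize, glk1 is known as the mesophyll member of a pair whose bundle sheath member is golden2. The gene lhcb6 encodes CP24, a minor chlorophyll-binding antenna protein that sits between the photosystem II core and its outer light-harvesting complexes.

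Signals are MAS5 intensities on a linear scale, which had been scaled to the same trimmed mean on every array. Median signals lay between 155.3 and 194.0 units. A probe set was tested if it exceeded the 40th percentile of its array, called the filter level here (72.6 to 106.8 units), on at least 3 arrays. This held for 12111 probe sets and for 4 of the 5 of glk1 and lhcb6. Arrays of replicate 1 stood apart from those of replicates 2 and 3 in every group (scores of -26.9 to -22.6 against 5.74 to 20.3 on the leading component of deviations from group means), so main values are also given without replicate 1. The genes used to mark mesophyll and bundle sheath exceeded the filter level on all arrays in 4 of 4 cases each, apart from lhcb6 itself, whereas 0 of 14 seed markers and 4 of 12 markers of dividing tissue did so on all arrays.

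The glk1 transcript was low in both lines under drought and was above the control level after re-watering. In Han21 the signal was 160.7, 151.3 and 165.0 units in control, 27.0, 32.3 and 27.0 under moderate drought and 20.8, 12.5 and 17.2 under severe drought. After re-watering it was 625.8, 874.7 and 729.5. No array of one of these Han21 groups lay within the range of another, and all 6 drought arrays were under the filter level.

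In Ye478 the control arrays of glk1 read 108.0, 95.0 and 137.1 units, and the second of them was just under the filter level of its array. Moderate drought gave 32.3, 26.5 and 32.8, severe drought 9.70, 14.7 and 19.7, and re-watering 421.4, 506.6 and 524.6. The order of the groups was the same as in Han21, again without overlap within the line. Over all arrays 11 of 24 were above the filter level, so glk1 passed the filter only through its control and re-watered groups.

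Ordered by mean, glk1 was highest in re-watered Han21 (743 ± 125, SD, n = 3), followed by re-watered Ye478 (484 ± 55.2), control Han21 (159.0 ± 7.03) and control Ye478 (113.4 ± 21.6). The drought groups followed, with 30.5 ± 3.49 in Ye478 and 28.8 ± 3.08 in Han21 under moderate drought, and 16.9 ± 4.16 in Han21 and 14.7 ± 4.99 in Ye478 under severe drought. Neighbouring groups overlapped only between the lines within moderate and within severe drought. The rank of glk1 among the 17621 probe sets for genes ran from 3183 on a re-watered array to 14736 on a severe-drought array.

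**Figure D1:**
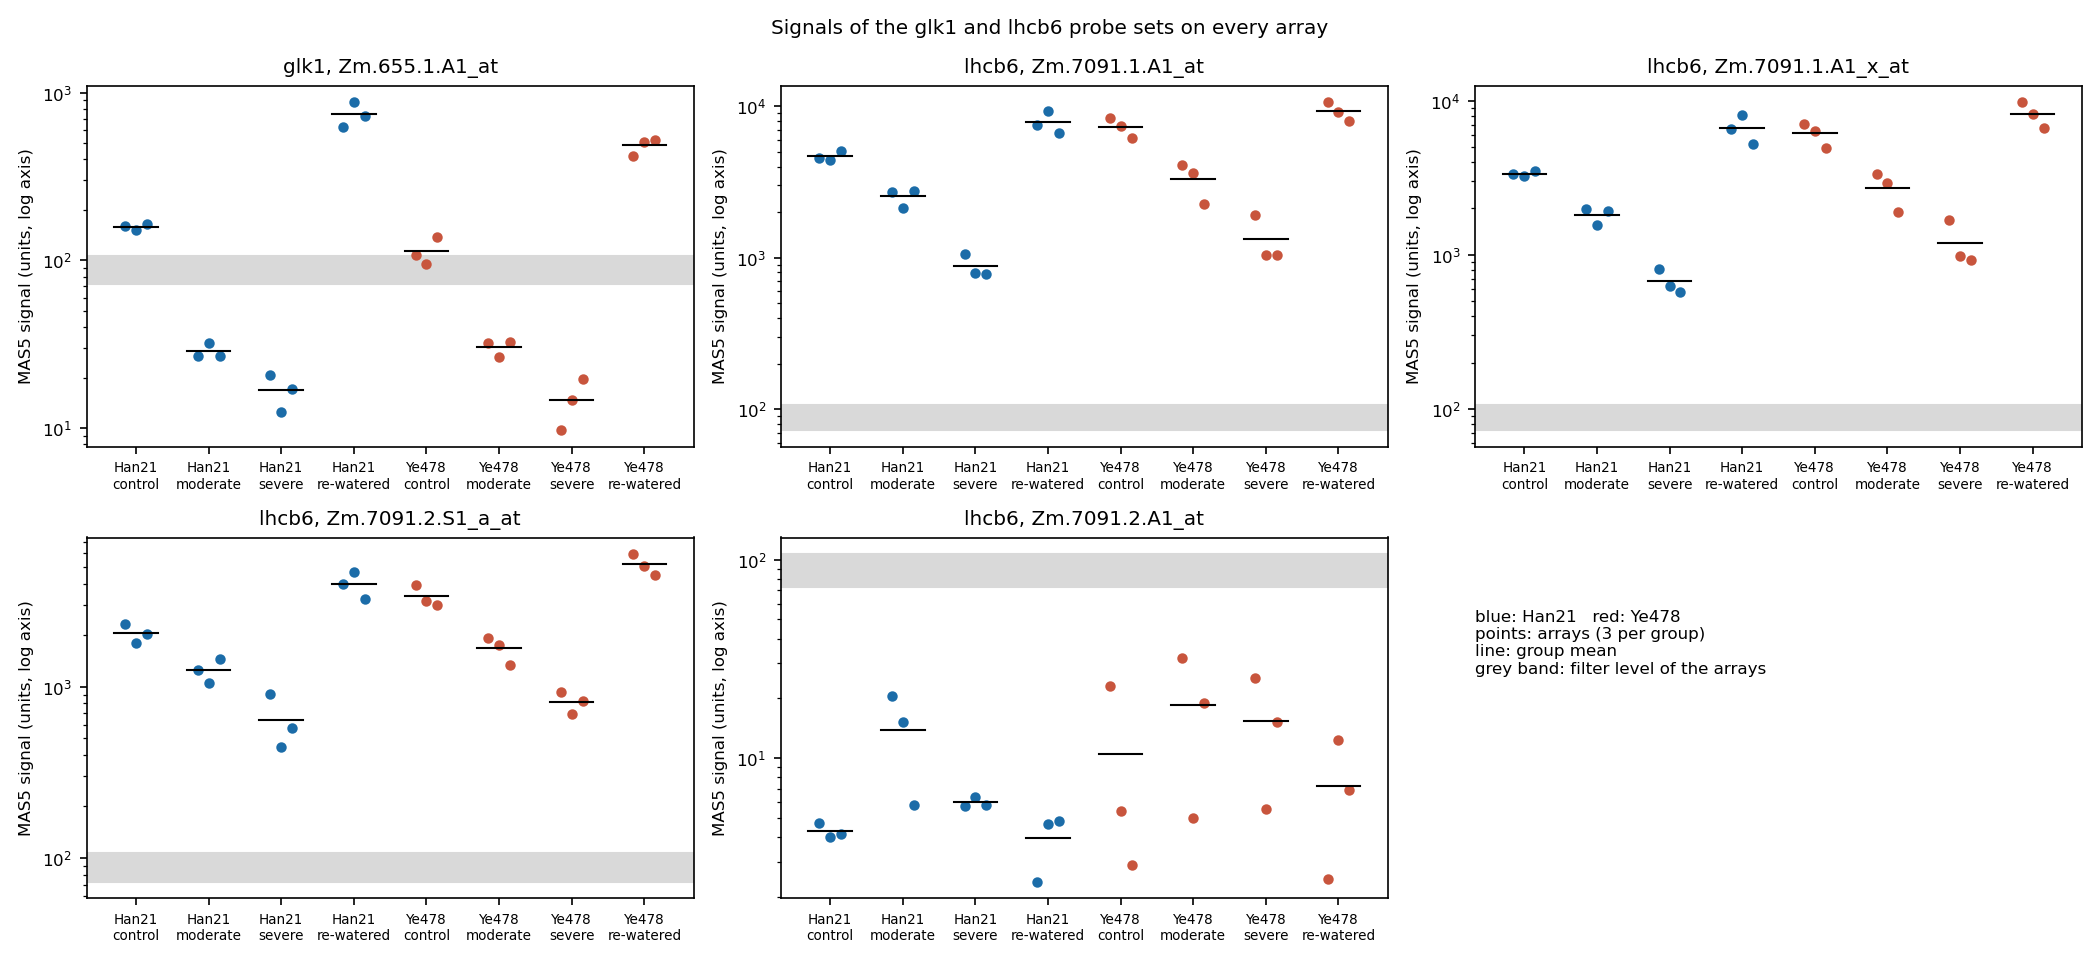
MAS5 signals in units, on log axes, of the 5 probe sets of glk1 and lhcb6 on each of the 24 arrays, by group; points are arrays, the short line is the group mean of 3 arrays and the grey band spans the filter levels of 72.6 to 106.8 units. The glk1 points are under the band in all drought groups and highest after re-watering, while 3 lhcb6 probe sets stay above it everywhere and the dim one (lower middle panel) stays under it.

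The fitted change of glk1 from control was -2.30 ± 0.20 (log2, SE, n = 3 arrays per group) under moderate and -2.95 ± 0.20 under severe drought in Han21. In Ye478 it was -1.74 ± 0.20 and -2.63 ± 0.20. Since the drought signals were under the filter level, the size of these differences depends on how low signals are treated. With every signal raised to at least the filter level of its array, control was still at least 1.93-fold above severe drought in Han21 and at least 1.46-fold in Ye478, and for moderate drought the bounds were 1.82-fold and 1.35-fold. Severe drought lay below moderate drought by a further change of -0.65 ± 0.20 in Han21 and -0.89 ± 0.20 in Ye478, between levels that were both under the filter level.

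After re-watering the mean glk1 signal was 4.68 times the control mean in Han21 and 4.27 times in Ye478 (log2 changes of 2.18 ± 0.20 and 2.06 ± 0.20). Here all arrays were above the filter level except 1 control array of Ye478, and raising signals to the filter level gave 4.53-fold and 4.16-fold. Of the 12111 tested probe sets 49 had a larger positive change between re-watered and control plants in Han21, and 150 did in Ye478. Since glk1 was chosen by its signals on these same arrays, nothing is read from these ranks. Against severe drought the re-watered level was 5.13 ± 0.20 higher on the log2 scale in Han21 and 4.69 ± 0.20 in Ye478, or at least 8.75-fold and 6.10-fold with signals raised to the filter level. Without replicate 1 the changes from control were -2.25, -3.07 and 2.31 in Han21 and -1.80, -2.46 and 2.13 in Ye478 for moderate drought, severe drought and re-watering.

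The lhcb6 transcript was abundant on all arrays, was lower under drought in both lines and returned to at least the control level after re-watering. For its brightest probe set Han21 gave 4531, 4451 and 5035 units in control, 2733, 2138 and 2761 under moderate drought and 1064, 799.2 and 779.8 under severe drought. Re-watered Han21 gave 7509, 9340 and 6643 units. The 4 groups of Han21 did not overlap, and severe drought was the lowest.

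In Ye478 the same lhcb6 probe set read 8326, 7380 and 6158 units in control, 4092, 3651 and 2248 under moderate drought and 1924, 1046 and 1045 under severe drought. Re-watered Ye478 gave 10602, 9147 and 8008 units. Both drought groups lay wholly below control, while the re-watered arrays overlapped the control arrays.

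The highest mean of this brightest lhcb6 probe set was that of re-watered Ye478 (9252 ± 1300, SD, n = 3), then re-watered Han21 (7831 ± 1377) and control Ye478 (7288 ± 1087), 3 groups in which neighbours overlapped. Control Han21 (4672 ± 316) stood alone. Below it came moderate drought in Ye478 (3331 ± 963) and Han21 (2544 ± 352), which overlapped, and severe drought in Ye478 (1338 ± 507) and Han21 (881 ± 159), which also overlapped. In re-watered Ye478 this probe set ranked 17 to 41 among 17621 by signal, and in severely stressed Han21 it ranked 2860 to 3713.

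Its fitted change from control was -0.88 ± 0.23 (log2, SE) under moderate and -2.41 ± 0.23 under severe drought, and 0.73 ± 0.23 after re-watering in Han21. In Ye478 the corresponding values were -1.16 ± 0.23, -2.49 ± 0.23 and 0.35 ± 0.23. As ratios of means, control was 5.30 times severe drought in Han21 and 5.45 times in Ye478, and re-watered plants were 8.89 and 6.91 times severe drought. The step from moderate to severe drought was -1.53 ± 0.23 in Han21 and -1.33 ± 0.23 in Ye478, and 218 and 187 tested probe sets had a lower value for that step. Nothing is read from these ranks, since lhcb6 was chosen by the same arrays. Without replicate 1 the changes from control were -0.96, -2.58 and 0.73 in Han21 and -1.23, -2.68 and 0.34 in Ye478.

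The other lhcb6 probe sets allow the readings to be compared within the gene. The _x_at probe set, whose ending marks probes that may also bind other transcripts, gave changes of -0.89, -2.33 and 0.95 in Han21 and -1.19, -2.40 and 0.41 in Ye478 (each ± 0.23). The _a_at probe set gave -0.71, -1.72 and 0.94 in Han21 and -1.01, -2.03 and 0.62 in Ye478 (each ± 0.21). Deviations of the arrays from their group means correlated at 0.983 between the brightest and the _x_at probe set, so these are hardly separate readings. Their correlations with the _a_at probe set were 0.770 and 0.763. For the _a_at probe set the Ye478 arrays after re-watering (5957, 5075 and 4472 units) did not overlap control (3924, 3148 and 3014), unlike those of the other measured lhcb6 probe sets. The dim probe set read 2.38 to 31.9 units, under the filter level on 24 of 24 arrays, and gives no information on the direction of a change.

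**Figure D2:**
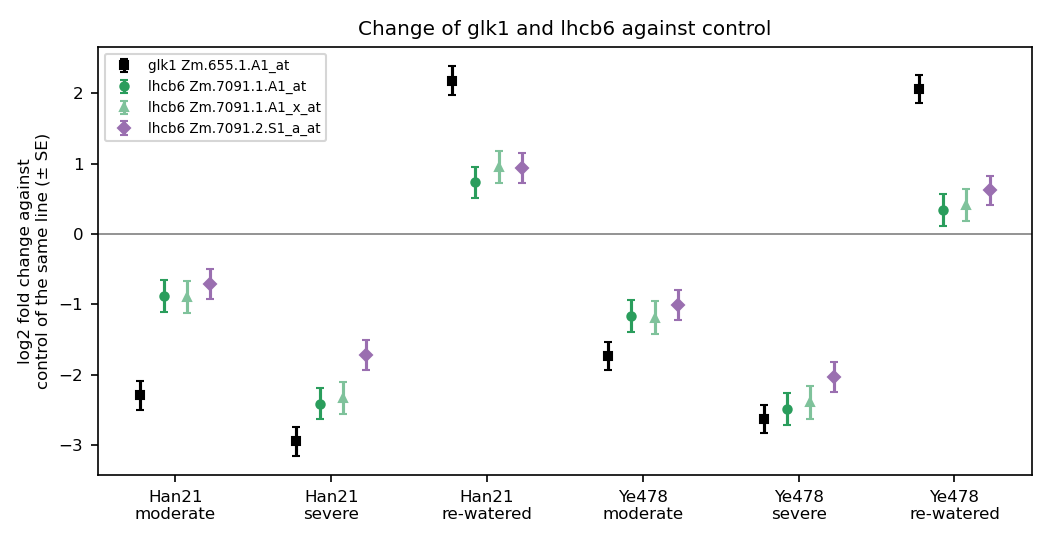
Log2 fold changes of the 4 tested probe sets of glk1 and lhcb6 against the control of the same line, with bars for the standard errors of the limma fit (3 arrays per group). All values are below 0 in the drought groups and above 0 after re-watering, where glk1 has the highest (2.18 in Han21 and 2.06 in Ye478), and the drought values of glk1 come from signals under the filter level, so that their place beside those of lhcb6 is not measured.

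Groups that do not overlap were common on these arrays, so the separations above are read beside all tested probe sets. Arrays lay wholly below control for 26.9% of probe sets under moderate and 30% under severe drought in Han21, and for 28.5% and 35.6% in Ye478. Arrays lay wholly above control after re-watering for 20.6% in Han21 and 17.6% in Ye478. From moderate to severe drought 16% lay wholly lower in Han21 and 20% in Ye478, and from severe drought to re-watering 32.9% and 33.5% lay wholly higher. All 4 tested probe sets of glk1 and lhcb6 were on the side stated in each of these comparisons, except for the brightest and the _x_at probe set of lhcb6 in re-watered against control Ye478, which overlapped. Results of these same arrays chose the genes, so nothing is read from the count.

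The lines differed in opposite directions for the 2 genes in watered plants. Control glk1 was higher in Han21 than in Ye478 by 0.49 ± 0.20 (log2), and control lhcb6 was lower by 0.63 ± 0.23, 0.85 ± 0.23 and 0.71 ± 0.21 for the 3 measured probe sets. The lines did not overlap in any of these 4 comparisons, against 22.8% of tested probe sets that were wholly higher and 20.8% wholly lower in control Han21. After re-watering glk1 was again higher in Han21, by 0.61 ± 0.20 without overlap (28.1% of tested probe sets were wholly higher), whereas the 3 lhcb6 probe sets overlapped. Under moderate and severe drought glk1 overlapped between the lines, at -0.07 ± 0.20 and 0.17 ± 0.20 (0.0042 and -0.16 without replicate 1), both between signals under the filter level. For the brightest, _x_at and _a_at probe sets of lhcb6, Han21 minus Ye478 was -0.35, -0.55 and -0.41 under moderate drought. Under severe drought it was -0.55, -0.78 and -0.40. The lines overlapped in all of these except the _x_at probe set under severe drought, and the share of all probe sets for this was not counted.

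The changes from control differed between the lines by less than 2 standard errors for glk1 and for the brightest lhcb6 probe set. For glk1 the change in Han21 minus that in Ye478 was -0.56 ± 0.29 under moderate and -0.32 ± 0.29 under severe drought, and 0.12 ± 0.29 after re-watering. Its drought values rest on signals under the filter level. For the brightest lhcb6 probe set it was 0.28 ± 0.32, 0.08 ± 0.32 (-0.02 with median centring) and 0.39 ± 0.32. Of all tested probe sets 8.14% were called for such a difference in moderate drought, 16.2% in severe drought and 13.7% in re-watered plants. The standard errors leave room for differences between the lines and do not show that the lines acted alike.

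The group means of glk1 and lhcb6 moved in the same order in most steps, with a Pearson correlation over the 8 group means of 0.888 to 0.915 between glk1 and the lhcb6 probe sets. Among the lhcb6 probe sets it was 0.989 to 0.996. These values share arrays, and the groups fall into stressed and unstressed ones, so they are a description only. For lhcb6 the step from moderate to severe drought was -1.53 against -0.88 from control to moderate drought in Han21. In Ye478 it was -1.33 against -1.16, which is within the standard errors. The steps share the moderate-drought arrays, and the difference between them was not tested in either line, so neither step is read as the larger. For glk1 the split between these steps was not measured, since both drought levels were under the filter level. After re-watering the fitted excess over control was 2.18 and 2.06 for glk1 and 0.73 and 0.35 for the brightest lhcb6 probe set. Replicate 1 lay above the group mean of the brightest lhcb6 probe set in 6 of 8 groups, by 0.21 on the log2 scale on average, and above that of glk1 in 3 of 8 groups, with a mean of -0.07.

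Among 792 named genes with a tested probe set, those whose 8 group means correlated most with glk1 were mdh4 (0.996), a cytosolic malate dehydrogenase, gz27 (0.993), a gamma zein storage protein, and NNR1 (0.991), a nitrate reductase. They were followed by elfa5 (0.988), a translation elongation factor, and ij1 (0.985), the iojap gene whose mutants have albino-striped leaves. Of these NNR1 had an amplitude like that of glk1, while the other 4 varied over a smaller range. The signals of gz27 were 24.7 to 128.3 units, around the filter level. For lhcb6 the closest were ATP-D (0.984), gar2 (0.960), nbp1 (0.959), TUA1 (0.952), an alpha tubulin, and GST26 (0.951), a glutathione S-transferase. In these rankings lhcb6 was number 64 for glk1, and glk1 was number 56 for lhcb6.

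**Figure D3:**
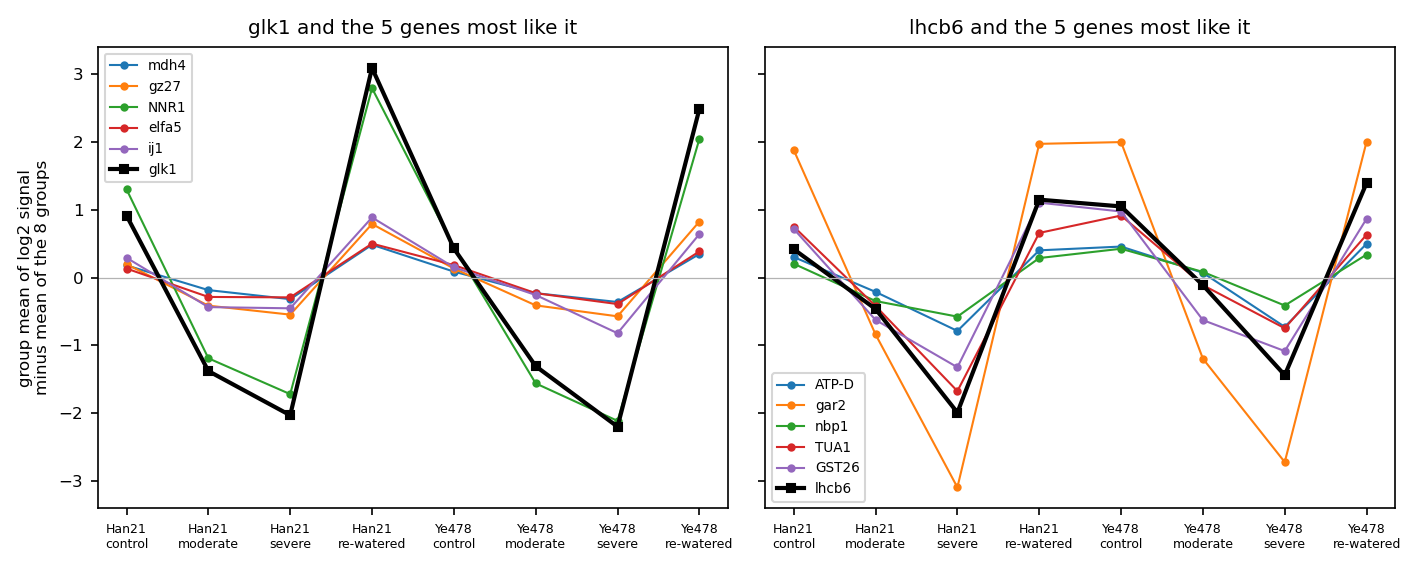
Group means of log2 signal, each gene centred on its mean of the 8 groups, for glk1 (left, black) and lhcb6 (right, black) with the 5 named genes whose pattern correlates most with each. All lines are lowest under severe drought or close to it, and among the genes shown beside glk1 only NNR1 has a range as wide as that of glk1.

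GLK13 was the only other gene named as a GOLDEN2-like factor on the array. Its change from control lay between -0.17 and 0.41 (each ± 0.27) in the 6 comparisons and passed the threshold in none (limma, adjusted p of 0.21 to 0.75). It differed between the lines instead. In control GLK13 read 101.5, 136.4 and 100.7 units in Han21 and 218.7, 255.5 and 299.3 in Ye478, a difference of -1.16 ± 0.27 (adjusted p = 0.00168), and it was also lower in Han21 under moderate drought (-1.41 ± 0.27, adjusted p = 0.000186), severe drought (-1.02 ± 0.27, adjusted p = 0.00354) and after re-watering (-0.83 ± 0.27, adjusted p = 0.0156). The Han21 control signals of GLK13 were around the filter levels of their arrays (97.4, 93.9 and 106.8 units). The size of the control difference thus depends on how low signals are treated. Of all tested probe sets 15.3%, 19.9%, 19.7% and 19.8% were called lower in Han21 in control, moderate drought, severe drought and re-watered plants. The re-watered difference of GLK13 was lost when replicate 3 was left out in both lines or in either line, with adjusted p up to 0.215. The direction is opposite to that of glk1 in control and re-watered plants.

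Chlorophyll synthesis genes, some of which GLK factors are known to activate in Arabidopsis, were mostly lower under severe drought. Of 4 tested genes named for chlorophyll and haem synthesis, 3 fell under severe drought in Han21 (median change -0.83) and 4 fell in Ye478 (median -1.45), and none rose. Under moderate drought 2 fell in Han21 and 4 in Ye478. The 4 genes and the median in Han21 include prpo1, which was under the filter level there and was not measured. The counts are therefore not comparable between the lines. The 4 genes and the medians of both lines also include por, whose role the annotation does not give. In both lines por was among the genes that fell under severe drought and rose after re-watering. After re-watering 3 rose above control in Han21 and 2 in Ye478, of which 1 was lost in Ye478 without replicate 1. Among all tested probe sets 28.7% were called lower in Han21 and 33.3% in Ye478 under severe drought, 22% and 25% under moderate drought, and 15.7% and 12% higher after re-watering, with medians of 0.03 and -0.02 under severe drought. These lists, like the genes, were put together with earlier results of these arrays known.

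The gene oy1, a subunit of the magnesium chelatase that opens the chlorophyll branch, read 2011, 1889 and 1943 units in control Han21 and 562.8, 753.0 and 405.9 under severe drought. In Ye478 it read 1652, 1606 and 1990 in control and 519.4, 387.9 and 367.1 under severe drought. All severe arrays were below all control arrays, with changes of -1.80 ± 0.19 (adjusted p = 4.11e-08) and -2.04 ± 0.19 (adjusted p = 4.25e-09). In re-watered Han21 oy1 was 0.67 ± 0.19 above control (adjusted p = 0.0075, but 0.136 without replicate 2). In re-watered Ye478 it was 0.50 ± 0.19 above control (adjusted p = 0.0466), a call that was lost without any 1 of the 3 re-watered arrays, without control replicate 1 or 2, without replicate 1 or 2 in both groups and under 3 other settings, with adjusted p up to 0.238.

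The uroporphyrinogen decarboxylase gene les22 fell under severe drought by 0.93 ± 0.13 in Han21 and by 1.08 ± 0.13 in Ye478 (adjusted p = 3.61e-06 and 3.63e-07). The gene named por, whose role the annotation does not give, changed by -0.72 ± 0.10 and -1.36 ± 0.10 (adjusted p = 4.09e-06 and 2.6e-10), and after re-watering by 0.59 and 0.78 (adjusted p = 0.00015 and 4.88e-06). The protoporphyrinogen oxidase gene prpo1 fell in Ye478 by 1.53 ± 0.21 (adjusted p = 2.13e-06). In Han21 prpo1 read 21.0 to 54.4 units, under the filter level in all groups, so its change there was not measured.

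Genes of the light reactions other than lhcb6 moved in both directions. Of 11 tested, 6 fell and 1 rose under severe drought in Han21 (median -0.52), and 7 fell and 2 rose in Ye478 (median -0.73), where 30.3% of all tested probe sets rose against 28.8% in Han21. Without replicate 1 the falls numbered 5 and 5, and without replicate 2 those in Ye478 numbered 4. The rise in Han21 was lost without any 1 replicate number, and without control or severe array 3 alone. After re-watering 1 rose and 0 fell in Han21, and 3 rose and 1 fell in Ye478 (19.2% and 16.3% of all tested probe sets fell). In Ye478 just 1 rise was left without any 1 replicate number, without control array 3 or without re-watered array 1, and the fall was lost without replicate 2 or 3. Of all tested probe sets 28.7% in Han21 and 33.3% in Ye478 fell under severe drought, and 15.7% and 12% rose after re-watering.

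The minor antenna gene lhcb5, which encodes CP26, another minor antenna protein of photosystem II, was closest to lhcb6 in kind. It read 4095, 4191 and 3768 units in control Han21 and 2661, 2146 and 2503 under severe drought, with 7826, 9196 and 6677 after re-watering. In Ye478 it read 4742, 3694 and 3590 in control, 1325, 722.8 and 809.9 under severe drought and 9207, 8532 and 7685 after re-watering. The changes from control were -0.72 ± 0.19 (adjusted p = 0.00225, and 0.0596 without replicate 2) and 0.96 ± 0.19 (adjusted p = 0.000398) in Han21, and -2.11 ± 0.19 (adjusted p = 2.92e-09) and 1.09 ± 0.19 (adjusted p = 0.000127) in Ye478.

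The photosystem and electron transport genes psad1, PSBQ1 and fnr1 fell under severe drought and were not called higher than control after re-watering. The photosystem I subunit gene psad1 changed by -1.33 ± 0.15 in Han21 and -1.25 ± 0.15 in Ye478 (adjusted p = 1.0e-07 and 1.93e-07), and the oxygen-evolving complex gene PSBQ1 by -0.96 ± 0.17 and -0.85 ± 0.17 (adjusted p = 6.1e-05 and 0.000183). The ferredoxin reductase gene fnr1 changed by -0.60 ± 0.13 and -1.51 ± 0.13 (adjusted p = 0.00064 and 2.9e-09). Against this course FDX6, a ferredoxin gene, rose in Ye478 by 1.29 ± 0.20 (adjusted p = 7.11e-06), while its change in Han21 was -0.23 ± 0.20.

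**Figure D4:**
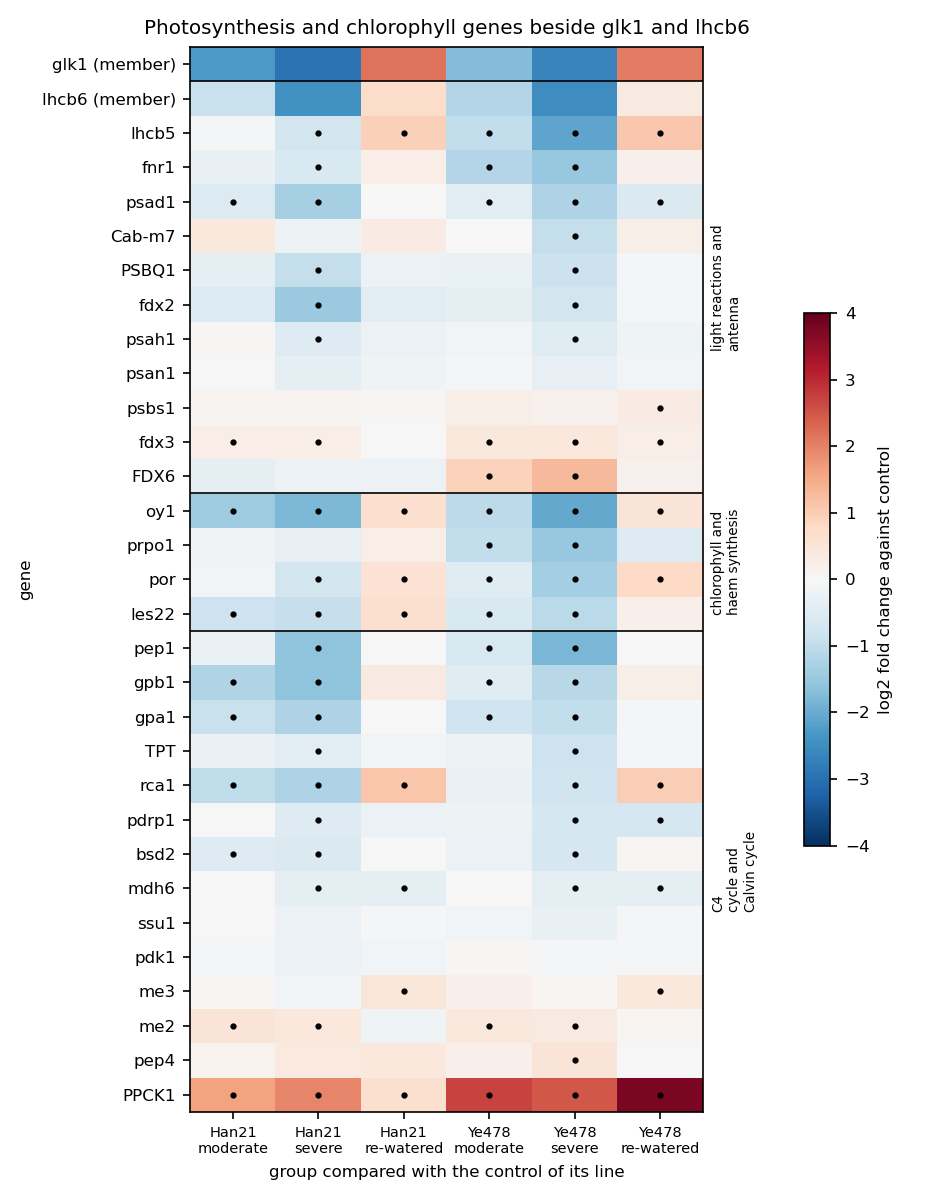
Log2 fold changes against the control of the same line (colour, blue below and red above 0) for glk1, lhcb6 (its brightest probe set) and the tested genes of 3 lists; dots mark list genes called by limma at an adjusted p under 0.05, and glk1 and lhcb6 carry no dot because they were not tested. Blue prevails in the severe-drought columns, with PPCK1 and FDX6 in red.

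For plastid gene expression and assembly, 11 of 19 tested genes fell and 3 rose under severe drought in Han21 (median -0.58), and 13 fell and 1 rose in Ye478 (median -0.65). The Ye478 rise was lost without replicate 2 or without control array 2. Beside this, 28.7% of all tested probe sets in Han21 and 33.3% in Ye478 fell under severe drought, and 28.8% and 30.3% rose. The import receptor gene toc35 read 1033, 857.4 and 829.4 units in control Han21 and 640.2, 451.6 and 460.0 under severe drought, a change of -0.82 ± 0.15 (adjusted p = 9.98e-05), and changed by -1.57 ± 0.15 in Ye478 (adjusted p = 1.15e-08). The gene hcf106, a component of thylakoid protein translocation, changed by -1.16 and -1.37 (adjusted p = 2.09e-07 and 1.26e-08). After re-watering 7 genes of the list rose in Han21, among them toc35 by 0.80 ± 0.15 (adjusted p = 0.000334), and 2 rose and 4 fell in Ye478. The 7 were 3 without replicate 2 and 4 without control array 2. With the replicate number as a block the Ye478 counts were 5 and 6, and without replicate 2 the 2 rises were 0. Of all tested probe sets 15.7% in Han21 and 12% in Ye478 rose after re-watering, and 19.2% and 16.3% fell.

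Of 14 tested genes of the C4 cycle and Calvin cycle, 8 fell under severe drought in each line and 2 rose in Han21 and 3 in Ye478 (medians -0.40 and -0.51). The rises were 1 in each line without replicate 2 or without control array 2, and also 1 in Ye478 without severe array 1. For comparison, 28.7% of all tested probe sets in Han21 and 33.3% in Ye478 fell under severe drought, and 28.8% and 30.3% rose. The Rubisco activase gene rca1 fell by 1.23 ± 0.15 in Han21 and by 0.79 ± 0.15 in Ye478 (adjusted p = 4.25e-07 and 9.19e-05), and after re-watering lay above control by 1.10 ± 0.15 and 0.99 ± 0.15 (adjusted p = 7.9e-06 and 2.66e-05), so that, as for glk1, severe drought lay below and re-watering above control in both lines. The C4 carboxylase gene pep1 fell by 1.62 ± 0.26 and 1.84 ± 0.26 (adjusted p = 1.67e-05 and 2.54e-06) and differed from control by -0.00443 and -0.000985 after re-watering (0.06 and 0.14 with median centring).

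Of light receptor and signalling genes 2 were tested. The blue light receptor gene nph1 fell below control after re-watering by 0.63 ± 0.12 in Han21 and by 1.28 ± 0.12 in Ye478 (adjusted p = 0.000305 and 3.21e-08). The gene elm1, which acts in synthesis of the phytochrome chromophore, was 0.77 ± 0.18 above control in re-watered Han21 (adjusted p = 0.00182, and 0.0575 without replicate 2).

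Summed signals of cell type markers varied over these groups, but not every marker changed, and their part in the results was not tested. The summed signal of 4 mesophyll genes without lhcb6 was 28926 to 39838 units in control Han21, 18693 to 26054 under severe drought and 28715 to 39444 after re-watering, and 26491 to 34851, 17910 to 21578 and 31676 to 37228 in Ye478. The 4 bundle sheath genes summed to 14982 to 19760, 12385 to 15047 and 20634 to 24952 in Han21, and to 14292 to 15302, 10555 to 13057 and 17475 to 19852 in Ye478. Under severe drought the mesophyll gene pdk1 and the bundle sheath genes ssu1 and me3 were called in neither line (limma, adjusted p of 0.103 to 0.712). The mesophyll genes pep1, mdh6 and lhcb5 and the bundle sheath genes rca1 and bsd2 fell in both. The summed signal of 12 genes of dividing tissue ran from 2182 to 4616 over all groups, but single genes moved in both directions. Of 7 tested, 4 fell and 1 rose under severe drought in each line, and after re-watering 3 rose and 1 fell in Han21 and 3 fell in Ye478. Among all tested probe sets 28.7% in Han21 and 33.3% in Ye478 fell under severe drought, and 28.8% and 30.3% rose. After re-watering 15.7% and 12% rose, and 19.2% and 16.3% fell.

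The replication clamp gene pcna2 read 541.9, 485.3 and 535.7 units in control Han21, 104.6, 58.2 and 70.3 under severe drought and 1025, 545.1 and 619.0 after re-watering. Under severe drought pcna2 changed by -2.71 ± 0.20 in Han21 and by -2.85 ± 0.20 in Ye478 (limma, adjusted p = 3.1e-10 and 9.08e-11), and after re-watering it differed from control by 0.43 (adjusted p = 0.105) and -0.78 (adjusted p = 0.00576). The replication helicase genes MCM6 and MCM7 also fell under severe drought, to signals under the filter level, and in re-watered Han21 were above control by 1.20 ± 0.30 and 1.22 ± 0.34 (adjusted p = 0.00405 and 0.00776). In that line severe drought lay below and re-watering above control for both, although neither was above the filter level on all control arrays. The cyclin gene cycD2 went the other way in both lines. It rose by 1.16 ± 0.15 under severe drought (adjusted p = 9.64e-07 in Han21 and 7.44e-07 in Ye478). After re-watering it was at -0.53 and -0.42 against control (adjusted p = 0.00839 and 0.039). The genes cdc2 and CDC5 were not called under severe drought. The genes pcna2, MCM6 and MCM7 were singled out after their values were seen. In bulk shoots fewer cells of a type and less RNA per cell cannot be told apart.

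The 14 seed genes, among them gz27, summed to 193.9 to 219.7 units in control Han21 and 4059 to 6071 under severe drought, and to 225.8 to 284.4 and 14581 to 16830 in Ye478. After re-watering they were 265.1 to 394.2 and 1060 to 2044, so the sum ran opposite to glk1 and lhcb6 between control and severe drought. Of 7 tested seed genes 4 rose under severe drought in Han21 and 6 in Ye478, while gz27 fell in both lines by 0.75 and 0.71 (adjusted p = 0.0219 and 0.0261). Over all tested probe sets 28.8% in Han21 and 30.3% in Ye478 rose under severe drought, and 28.7% and 33.3% fell. As a sign of RNA quality, the log2 ratio of the 3' to the 5' probe set was below control on average in 2 to 4 of 7 control pairs in each treatment. Under severe drought 2 of 7 pairs had a mean below control in Han21 and 3 of 7 in Ye478, while the others lay above it. An actin pair that fell had Han21 means of 1.87 ± 0.16 in control and 1.03 ± 0.32 under severe drought (SD, n = 3). Its Ye478 means were 2.03 ± 0.24 and 1.13 ± 0.36. A second actin pair had higher means under severe drought, with a wider spread. Control and severe-drought values of that pair were -3.17 ± 1.00 and -1.23 ± 1.07 for Han21, and -3.11 ± 3.28 and 0.16 ± 0.97 for Ye478. The part of this ratio in the results was not tested.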

How the data were processed

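The table holds signal intensities that the authors deposited for 17734 probe sets on 24 arrays. Per the submitters' processing notes they came from GCOS and MAS5, and no version is given in the sources used here. The 2% trimmed mean of every array was 500.1 to 500.2, so arrays had been scaled alike, and no further normalization was applied. After leaving out 113 control probe sets, 12111 of 17621 passed the filter described above. Values were analysed as log2 of the signal plus 4.56, the 10th percentile of all values.

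With limma 3.58.1 in R 4.3.3 each group got its own mean in 1 model over the 24 arrays, whose variances were moderated with a trend (residual degrees of freedom 16, prior 5.01). There were 17 contrasts, with Benjamini-Hochberg adjustment within a contrast at 0.05. Tables were made with pandas 2.3.3 and numpy 2.4.6 under Python 3.11.15, and figures with matplotlib 3.10.9. The fit was tested on simulated data. The number of arrays limits the precision.

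The array annotation, of 2007, gives 1 gene to 1452 probe sets, several to 1 and none to 16168, and 1377 had a gene identifier in the RefSeq gene table. Both glk1 and lhcb6 were matched through their gene identifier. Lists were built from gene symbols and synonyms, each gene read by its brightest probe set, and genes whose other names showed another function were removed. The genes and lists were chosen with earlier results of these data known. List genes are named as the up to 4 with the smallest adjusted p under severe drought in each line, with all GLK factors and the 5 genes most like each of glk1 and lhcb6.

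Arrays with the same replicate number in the compared groups deviated together (r = 0.154 to 0.692 over 42 pairs of arrays). Arrays with different numbers were not correlated for comparison, and replicate 1 stood apart from the other replicates in every group. Whether the numbers pair the samples was therefore not tested. The replicate number was a block in 1 alternative. Further alternatives changed the scaling (median centring or quantile normalization), the filter (none, or the 60th percentile), the constant (none, or 4 times as large), the variance trend (none), the samples fitted (only the compared groups, or each replicate left out), the call (2-fold) and the probe sets of a list (all of them). No sequences or coordinates were used here.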

Additional observations from a re-analysis of the deposited data

Results flagged for a closer look

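None of the differences between the lines in the response of glk1 or lhcb6 was tested, and those named here are of the list genes whose change from control differed between the lines in limma's test of the difference itself (the change in Han21 minus that in Ye478, log2 ± SE). Among all tested probe sets the share called for this difference was 8.14% in moderate drought, 16.2% in severe drought and 13.7% in re-watered plants.

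Nearest to lhcb6, the antenna gene lhcb5 had a difference of 0.93 ± 0.26 under moderate drought (adjusted p = 0.0301), where its change was -0.06 in Han21 (adjusted p = 0.823) and -0.99 in Ye478 (adjusted p = 0.000147), and of 1.38 ± 0.26 under severe drought (adjusted p = 0.000944), where it fell in both lines. For the electron transport gene fnr1 the difference was 0.89 ± 0.19 under moderate drought (adjusted p = 0.00406), with a change of -0.29 in Han21 (adjusted p = 0.0912) and -1.18 in Ye478 (adjusted p = 2.41e-07), and 0.91 ± 0.19 under severe drought (adjusted p = 0.00193). FDX6 differed by -1.28 ± 0.28 (adjusted p = 0.00489) and -1.52 ± 0.28 (adjusted p = 0.000624), with rises in Ye478.

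Under severe drought the difference was 0.64 ± 0.15 for por (adjusted p = 0.00432). The fit also called 1.20 ± 0.30 for prpo1 (adjusted p = 0.00841), but 0 of 12 Han21 arrays were above the filter level, so its Han21 change and with it the difference were not measured. The difference under severe drought was 0.83 ± 0.24 for tha9 (adjusted p = 0.0216), 0.76 ± 0.22 for toc35 (adjusted p = 0.0188) and 0.54 ± 0.17 for nph1 (adjusted p = 0.0316). After re-watering nph1 differed by 0.65 ± 0.17 (adjusted p = 0.0138).

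In carbon fixation the difference under moderate drought was -0.71 ± 0.20 for gpb1 (adjusted p = 0.0301) and -0.74 ± 0.21 for rca1 (adjusted p = 0.0324). PPCK1, the kinase of the C4 carboxylase, differed by -1.08 ± 0.23 under moderate drought (adjusted p = 0.00412) and by -3.12 ± 0.23 after re-watering (adjusted p = 6.02e-08), where it was 0.64 above control in Han21 and 3.76 in Ye478. Leaving out prpo1, 3 of these 15 differences were called under every alternative tried, those of PPCK1 after re-watering and of FDX6 and lhcb5 under severe drought, and each of the other 12 was lost under at least 1.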

How the results depend on the processing

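Changes between treatments within a line kept their sign for the tested probe sets of glk1 and lhcb6 in all 720 recomputed values. Small differences between the lines did not. The sign of 2 differences in level, those of glk1 under moderate and severe drought, turned in 4 of 288 recomputed values, all with replicates left out. The sign of 3 differences in response turned in 14 of 288, those of glk1 after re-watering (down to -0.02) and of 2 lhcb6 probe sets under severe drought. Of their recomputed changes 601 differed from the value reported by no more than the replicate SD and 11 by more under other settings, and 683 and 1 when replicates were left out, where glk1 in Han21 minus Ye478 under moderate drought was -0.23 without replicate 2. For glk1 the change under moderate drought in Han21 was -2.13 with quantile normalization, -2.47 without a constant and -1.92 when it was 4 times as large, and under severe drought -3.27 and -2.34 in the same order. In Ye478 the larger constant gave -1.42 and -2.0. Re-watered minus severe drought was 5.48 and 4.43 in Han21 and 5.09 and 3.94 in Ye478 (without a constant, then with the larger one). These settings act on signals under the filter level by construction.

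Median centring adds 0.10, 0.10 and 0.06 to the log2 changes in Han21 and 0.13, 0.20 and 0.14 in Ye478 (moderate drought, severe drought, re-watered), and turned the sign of 0 of 93 called changes of named list genes from control and of 10 that were not called, none larger than 0.106.

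Counts of light reaction genes, rises and then falls, were 1 and 1 under moderate drought in Han21, 0 and 3 with quantile normalization, 2 and 3 with the replicate block, 2 falls with only the groups compared, 2 rises with every probe set and 0 and 0 at 2-fold. In Ye478 the 2 and 3 were 6 falls with quantile normalization and 0 and 1 at 2-fold. Under severe drought 2-fold left 0 and 2 in Han21 and 1 and 3 in Ye478, and only the groups compared left 0 rises in Han21. After re-watering quantile normalization gave 1 fall in Han21 and 2-fold 0 rises. In Ye478 only the groups compared left 1 rise, median centring 0 falls and 2-fold 1 and 0. With replicates left out the ranges of rises and falls were 0 to 1 and 0 to 2, 0 to 1 and 4 to 7, and 1 to 1 and 0 to 1 in Han21 (moderate drought, severe drought, re-watered), and 2 to 3 and 2 to 3, 2 to 2 and 4 to 8, and 1 to 3 and 0 to 1 in Ye478. The cause was not tested.

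For the other lists, falls under severe drought in Han21 and Ye478 were also counted at 2-fold. They were 1 and 4 for chlorophyll synthesis, 4 and 2 for the C4 and Calvin cycles and 2 and 5 for plastid expression. Over these lists and the light reactions together, 40 counts changed more than slightly at 2-fold and 8 did not. With replicates left out 73 did so and 359 did not. With the replicate block rises after re-watering in Han21 were 5 in place of 3 for the C4 and Calvin cycles, and chlorophyll synthesis had 1 fall in place of 0 in Ye478. For named list genes the block lost 0 of 93 calls and added 7, those of prpo1, ppt1 and toc35 in re-watered Ye478, gpb1 in re-watered Han21 and PSBQ1, fdx2 and nph1 under moderate drought in Han21. Of the 93 called changes of named list genes from control, 14 were lost under at least 1 alternative and 79 under none. Counts over all tested probe sets fell most at 2-fold, to 1212 rises of 3490 under severe drought in Han21. The number of arrays and, for glk1 under drought, the low signal limit these values.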
